A study of Mus musculus with 18 samples.

Results

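Wdr89, Tmem38b, Lars2, Lrrc58, Vmp1, Oaz1 and Fau were 7 genes of mouse T cells whose GCLiPP peaks carried far more score than the level of their RNA would place them at. GCLiPP (global cross-linking and protein purification) sequences the stretches of RNA that proteins protect in the cell, and the deposited peak list gives each stretch a whole-number score whose meaning is not given in the sources used here. The 7 genes were chosen from these same measurements, by the ratio of the summed score of all peaks named for a gene to its mean RNA value in the untreated libraries. They were 7 of 6688 genes with a peak, and held 23 of 27729 peaks. All 7 were also among the 43432 genes of the RNA-seq table. Since the ratio chose the genes, scores and ratios are given as a description without a test, and only the RNA comparisons were tested.

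The cells were primary T cells of C57BL/6 mice (C57BL/6 J in the study's methods), activated on antibodies to CD3 and CD28. The labels put the culture on these antibodies at 5 days, and the study's methods move the cells to uncoated dishes after 3 days. Th2 cells (CD4 T cells with IL-4, IL-2 and anti-Ifn-gamma) were set beside CD8 T cells (with IL-12 and IL-2). For the last 4 h cells either stayed in fresh medium without stimulus (resting) or received PMA and ionomycin (stimulated), which imitate T cell receptor signalling, and they were then irradiated at 254 nm with 8000 mJ. The peak list was pooled by the authors over 10 GCLiPP libraries, 6 from Th2 and 4 from CD8 cells, and holds no value for a single library. RNA-seq comprised 8 libraries, all labelled as oligo-dT selected RNA: both cell types, resting or stimulated, each without and with actinomycin D, a drug that blocks RNA synthesis, at 1 library per condition. Cells for a library came from several pooled mice. The study's methods give actinomycin D at 5 µg/mL for up to 4 h, and the duration for the sequenced libraries is not given in the sources used here. For the decay measurements those methods lyse the treated cells in Trizol, whereas the untreated RNA came from a detergent lysate cleared of nuclei, and they do not say which preparation the treated sequencing libraries had. RNA values are gene reads divided by 1 size factor per library, called scaled reads here. They are not divided by gene length. The ratio that chose the genes, its ranks and its sums over 2 genes use scaled reads without regard to length, and levels of different genes are set side by side per kilobase.

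Recovered depth was 24154849 to 31042504 gene reads per RNA-seq library. The T cell markers Cd3e, Cd3g, Cd3d, Trac, Cd2, Thy1 and Lck summed to 86665 to 137405 scaled reads in Th2 libraries and 88467 to 129160 in CD8 libraries. The summed Th2 markers (Cd4, Gata3, Il4, Il13) ranged from 29896 to 94765 scaled reads in Th2 libraries and from 70.9 to 500.2 in CD8 libraries. The CD8 list (Cd8a, Cd8b1, Gzmb, Prf1), whose last members are cytotoxic effectors, summed to 96577 to 155796 in Th2 libraries and 274132 to 508325 in CD8 libraries. B cell markers (Ms4a1, Cd79a, Pax5) summed to 217 to 264 in Th2 and 12.8 to 32.1 in CD8 libraries, and myeloid markers (Lyz2, Csf1r, Itgam) to 49.8 to 227 and 20.7 to 49.2. Erythroid markers summed to at most 6.795 in a library, and Alas2 was at 0 in every one.

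The 3′ UTR of an mRNA is its untranslated tail, where RNA-binding proteins and microRNAs govern stability, location and translation. The 7 genes have unrelated products. Fau encodes a ubiquitin-like protein fused to the ribosomal protein eS30, and Oaz1 encodes antizyme, which sends ornithine decarboxylase to the proteasome and is translated through a frameshift. Lars2 is the mitochondrial leucyl-tRNA synthetase. Tmem38b is a cation channel of the endoplasmic reticulum that supports calcium release, and Vmp1 is a membrane protein of the same compartment needed to form autophagosomes. Wdr89 and Lrrc58 are named for their WD and leucine-rich repeats.

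The ratio of summed score to RNA was 35.1 for Wdr89, 28.0 for Tmem38b, 26.8 for Fau, 6.31 for Lars2, 5.99 for Lrrc58, 5.91 for Oaz1 and 3.32 for Vmp1. Among the 6489 genes with a peak and a mean untreated value of at least 50 scaled reads, the median ratio was 0.0426 and the 99th percentile was 1.04. The 7 genes took ranks 1, 3, 4, 7, 8, 9 and 23 in that order. Together they held 7.28% of the score of all peaks with 0.0829% of the peaks, and 9 of the 20 highest peaks were theirs. High ratios outside the 7 included Actg1 at 28.5, Rpl24 at 6.47, Mid1 at 5.82 and Snrpf at 5.80. Just above Vmp1 stood Rps29 at 4.10, Rpl28 at 3.83 and Tpt1 at 3.61, and just below it Rps16 at 3.11, Dnm1 at 3.05 and Uqcr11 at 3.02.

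**Figure D1:**
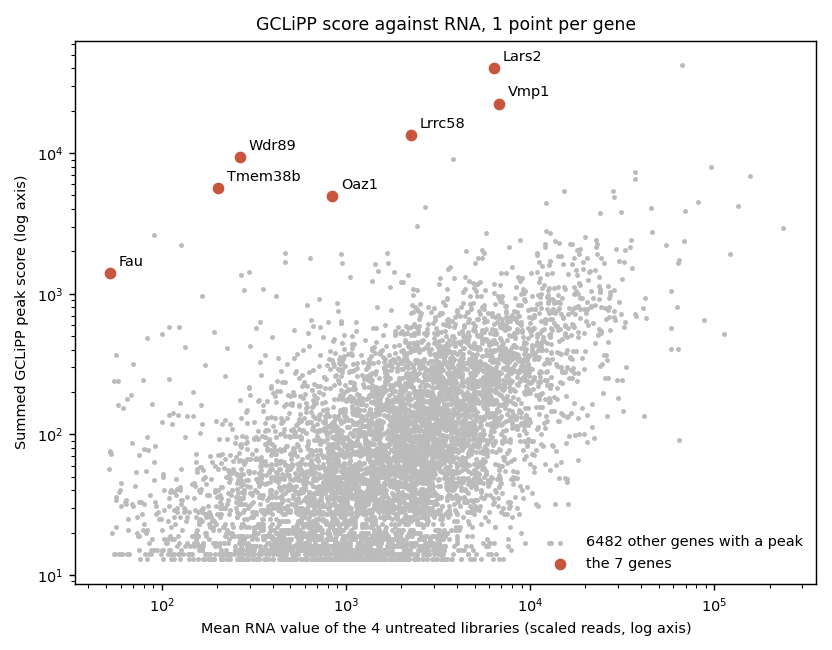
Summed GCLiPP peak score (vertical, log axis) against the mean RNA value of the 4 untreated libraries in scaled reads (horizontal, log axis), with 1 point per gene for 6489 genes. The 7 genes (red) lie along the upper edge of the cloud, from Fau at an RNA value of 52.1 to Vmp1 at 6783.

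A high ratio arose at very different RNA levels. Mean untreated RNA per kilobase of the longest transcript was 70.1 scaled reads for Fau, 70.5 for Tmem38b, 89.3 for Wdr89, 262 for Lrrc58, 332 for Oaz1, 1639 for Lars2 and 2434 for Vmp1, against a median of 535 over the genes with a peak. By this length Lars2 and Vmp1 stood above that median and the other 5 genes below it. The place of Oaz1 depends on the transcript. Its longest has 2526 bases, whereas a transcript that holds its peak has 1071, over which Oaz1 would lie above the median. Dividing the score by RNA per kilobase, an alternative chosen after seeing the data, kept 6 of the 7 genes among the 10 highest ratios. The summed scores behind these ratios were 40264 for Lars2, 22514 for Vmp1, 13497 for Lrrc58, 9327 for Wdr89, 5649 for Tmem38b, 4957 for Oaz1 and 1398 for Fau, against a median of 70 for a gene with a peak.

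The number of peaks that carried the score also differed. Tmem38b, Vmp1, Oaz1 and Fau had 1 peak each, as did 32.3% of the ranked genes. Lars2 had 5 peaks, Wdr89 6 and Lrrc58 8, and the highest of them held 40.6%, 26.2% and 30.4% of the gene's score. All 23 peaks lay on the strand of their gene and were 70 bases wide. The authors called peaks within 3′ UTRs, and 22 of the 23 fell wholly within the 3′ UTR of a GENCODE transcript of their gene, as 85.8% of all peaks did. The exception was the Fau peak, which also covered the end of the coding sequence. In the peak names 2 of the Lrrc58 peaks carried a cell type, 1 Th2 with a score of 280 and 1 CD8 with a score of 202, and these were the weakest of the 23.

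**Figure D2:**
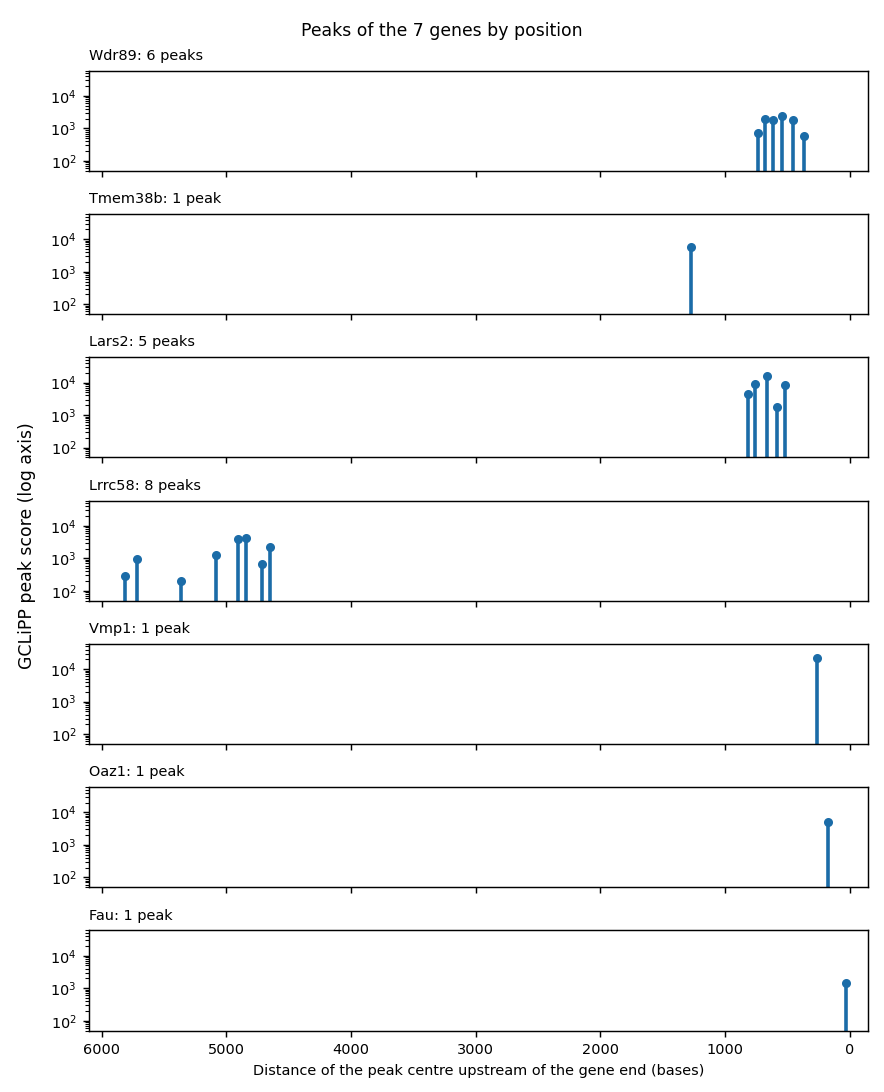
Score of each peak (vertical, log axis) against the distance of its centre upstream of the gene end in bases (horizontal), 1 panel per gene. Peaks of Lars2, Wdr89 and Lrrc58 stand in clusters, the Lrrc58 cluster lying 4651.5 to 5809.5 bases from the gene end and the other 15 peaks within 1270 bases.

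The Vmp1 peak had the highest score of all 27729 peaks. It lies at chr11:86584096-86584165 (mm10, minus strand), 265.5 bases from the gene end by its centre, and 63 of its 70 bases fall within the microRNA gene Mir21a at chr11:86584067-86584158, which sits inside the Vmp1 3′ UTR. The whole of miR-21a-5p and 8 bases of miR-21a-3p were inside the peak. The microRNA miR-21 is abundant in activated T cells, and its precursor can be cut from transcripts that run through Vmp1. The peak is shown with the bases of miR-21a-5p in capitals, next to both mature microRNAs from RefSeq (GRCm38.p6) with the seed, bases 2 to 8, in capitals.
Vmp1 peak, chr11:86584116-86584145, minus strand: cggaTAGCTTATCAGACTGATGTTGActgt
mmu-miR-21a-5p: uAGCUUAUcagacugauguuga
mmu-miR-21a-3p: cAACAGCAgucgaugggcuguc
Mir21a itself was listed at 0 in all 8 RNA-seq libraries, and no peak is named for it. No other annotated transcript aligned with the peak.

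The Tmem38b peak, score 5649, lies at chr4:53860715-53860784 (plus strand). Its first 56 bases are the end of n-R5s185, an annotated 5S ribosomal RNA gene at chr4:53860652-53860770 within the Tmem38b 3′ UTR. Ribosomal 5S RNA is a small RNA of the large ribosomal subunit made from many gene copies. The peak aligned with transcripts of 121 other annotated genes besides n-R5s185, among them Gm22109 without a mismatch over 56 bases. Of the 118 rRNA genes aligned, a count that includes n-R5s185, 13 had an untreated RNA value above 0. None exceeded 10.1 scaled reads in an untreated library. The other hits were 3 predicted microRNA genes and Sp100, named after its values were seen, which aligned over 52 bases at 92.3% identity and had a mean untreated RNA of 4296 scaled reads. n-R5s185 was listed at 0 in every library, which does not show absence, since the counting of reads that also lie in Tmem38b is not given. The window shown runs over the end of that gene, with its bases in capitals.
Tmem38b peak, chr4:53860750-53860779, plus strand: GAATACCGGGTGCTGTAGGCTtgaaaaaaa

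All 6 Wdr89 peaks, between 75630929 and 75631365 on chr12 (minus strand), aligned over their full 70 bases with Rplp2, the acidic ribosomal protein P2, whose gene is at chr7:141447370-141451585. Rplp2 was the best match of 4 genes hit elsewhere. Over 420 aligned bases there were 3 mismatches and no gaps, an identity of 99.3%. From 5′ to 3′ the scores were 727, 2014, 1769, 2444, 1776 and 597. The window from the highest peak is shown beside Rplp2, with the base that differs in capitals. Counted from the 5′ end of the window, the difference from Wdr89 to Rplp2 was T16C. In Rplp2 the matching bases lie in a pair of exons, chr7:141448752-141448774 and chr7:141451004-141451010, and in Wdr89 they are uninterrupted.
Wdr89 peak, chr12:75631140-75631169, minus strand: cattgaggatgtcatTgctcagggtgttgg
Rplp2 transcript, plus strand: cattgaggatgtcatCgctcagggtgttgg
Rplp2 itself had 1 peak with a score of 608, a mean untreated RNA of 3896 scaled reads and a ratio of 0.156. That peak overlapped the Wdr89 peak of score 597 by 65 bases on the Rplp2 transcript. The other 5 Wdr89 peaks lay upstream and matched no Rplp2 peak. Since the authors called peaks within 3′ UTRs, the list cannot show whether Rplp2 carried signal outside its own 3′ UTR. Set against the RNA of Wdr89 and Rplp2 together, an alternative chosen after seeing the data, the Wdr89 score alone gave a ratio of 2.24 and rank 34. The Rplp2 score of 608 was left out of this ratio while the Rplp2 RNA was counted. The rank is among ratios that mostly use the RNA of a single gene.

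All 8 Lrrc58 peaks, between 37883014 and 37884241 on chr16 (plus strand), aligned with Actb, beta-actin, whose gene is at chr5:142903115-142906754. Actb was the best match of 52 genes hit elsewhere. Identity was 97.2% over 537 aligned bases, with 11 mismatches and 4 gap positions. The 3 most upstream peaks also overlap Gm15725, an annotated processed pseudogene at chr16:37882542-37883631 that was listed at 0 in all 8 libraries. How reads that lie in both Gm15725 and Lrrc58 were counted is not given, so this 0 does not show absence either. The window from the highest peak, score 4106, differed from Actb by C6T, counted from its 5′ end.
Lrrc58 peak, chr16:37883988-37884017, plus strand: gtccaCgccctgagtccaccccggggaagg
Actb transcript, chr5:142903362-142903391, minus strand: gtccaTgccctgagtccaccccggggaagg
Actb had 8 peaks of its own with a summed score of 42050, a mean untreated RNA of 67114 scaled reads and a ratio of 0.627. Placed on the Actb transcript, 5 of the 8 Lrrc58 peaks overlapped an Actb peak, and these 5 held 89.3% of the Lrrc58 score. Their scores from 5′ to 3′ were 1239, 3888, 4106, 658 and 2159, beside 4002, 3850.0, 6548, 1611 and 9670.0 for the Actb peaks they overlapped. The remaining Lrrc58 peaks lay upstream of every Actb peak, and the list cannot show signal of Actb outside its own 3′ UTR. Set against the RNA of Lrrc58 and Actb together, an alternative chosen after seeing the data, the Lrrc58 score alone gave a ratio of 0.195 and rank 590. The Actb score of 42050 was left out of this ratio while the Actb RNA was counted, which lowers it. The rank is among ratios that mostly use the RNA of a single gene, so it does not measure sharing.

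**Figure D3:**
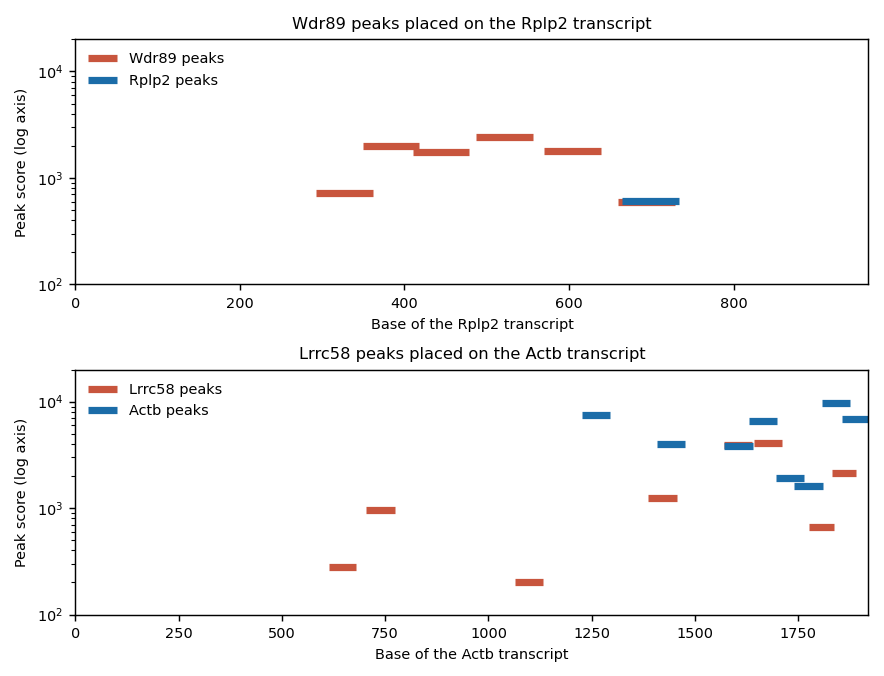
Peaks of Wdr89 (top) and Lrrc58 (bottom) in red, placed by alignment on the Rplp2 and Actb transcripts (horizontal, bases from the 5′ end), with the peaks of Rplp2 and Actb in blue and the score on a vertical log axis. Lrrc58 and Actb peaks overlap at 5 places toward the 3′ end, while 5 of the 6 Wdr89 peaks lie upstream of the only Rplp2 peak. Peaks were called within 3′ UTRs, so a lack of blue peaks elsewhere does not show a lack of signal.

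The 5 Lars2 peaks, between 123461811 and 123462182 on chr9 (plus strand), had scores of 4306, 9140.0, 16358, 1771 and 8689 from 5′ to 3′, and 4 of them were among the 11 highest peaks of the list. Only 2 aligned with another annotated transcript. The peak of score 1771 matched Gm15564, at chr16:35966752-35983230, over 68 bases with 1 mismatch, and the predicted transcript AA474408 over 54 bases. The highest peak matched AA474408 over 33 bases. The first window shown is from the highest peak and the second is the 3′ end of the last peak. The end of the second window spells the sarcin-ricin loop of large-subunit ribosomal RNA, a stretch conserved from bacteria to mammals, which is background knowledge: no 28S rRNA sequence was compared here.
Lars2 highest peak, chr9:123461986-123462015, plus strand: gcgttcatagcgacgtcgctttttgatcct
Lars2 last peak, chr9:123462153-123462182, plus strand: catggtaatcctgctcagtacgagaggaac

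The Oaz1 and Fau peaks aligned with no other annotated transcript. The Oaz1 peak, score 4957, lies at chr10:80829080-80829149, 175.5 bases from the gene end by its centre. The Fau peak, score 1398, lies at chr19:6059460-6059529 and runs past the end of the gene in the RNA-seq table. Its window holds AATAAA, the letters of the polyadenylation signal, in capitals.
Oaz1 peak, chr10:80829100-80829129, plus strand: tcttcgagctgaatgctgtgtttgtcacac
Fau peak, chr19:6059487-6059516, plus strand: ccctgccatgctAATAAAgccactgtgtcc
On the transcript strand AATAAA occurred in 3 of the 23 peaks, 1 each in Fau, Wdr89 and Lrrc58. It occurred in 6.57% of the 25741 peaks with a full sequence, which leave out the Fau peak with its 65 bases of transcript. The AU-rich letters ATTTA occurred in 1 of the 23, an Lrrc58 peak, and in 7.93% of the peaks with a full sequence.

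Sequence shared with other genes was common in these peaks. In 16 of the 23, at least 50% of the 25-base words also occurred in a transcript of another annotated gene, against 2.38% of the 25719 other peaks with a full sequence and 13% of the 100 highest of those. The 16 peaks held 53.4% of the score of the 7 genes, where such peaks held 5.68% of the score elsewhere. For Vmp1 the sharing is with Mir21a on the same bases, and that peak alone held 22514 of the score of 52100 in these 16 peaks. Most of the 16 were peaks of Wdr89 and Lrrc58. In all, 17 of the 23 peaks aligned with an annotated gene at another place, namely all peaks of Wdr89, Lrrc58 and Tmem38b and 2 of Lars2. How the aligner placed reads that match several places is not given in the sources used here, and the part of such reads in the scores was not tested.

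Whole transcripts showed a related pattern. The share of 50-base words also found in another gene was 29.97% for Fau, 21.0% for Oaz1, 13.7% for Lrrc58, 10.8% for Wdr89, 1.97% for Vmp1, 1.86% for Tmem38b and 0.196% for Lars2. The median over genes with a peak was 0%. It was 37.4% for Actg1 and 51.8% for Rpl24. Of the 26 genes with the highest ratios, 20 shared at least 10% of their words, as did 8.45% of all ranked genes. The 26 end at Uqcr11, the lowest ratio named above, and include the genes that this same ratio chose. These shares are therefore a description without a test, and other cuts than 26 genes and 10% were not tried. The part of reads lost or split among copies in the RNA values of Fau and Oaz1 was not tested.

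RNA levels of the 7 genes were then followed over the 8 libraries, to see whether RNA behind the high ratios moved with the drug, the stimulus or the cell type. Each value set is given in the order Th2 resting, Th2 stimulated, CD8 resting and CD8 stimulated, in scaled reads. Lars2 had values of 4200.3, 6801, 5152 and 9371 without and 13480.2, 11839, 14992 and 21012 with actinomycin D. Every treated library was above every untreated library. Vmp1 had values of 6264, 9252, 5613 and 6005 without and 4098, 4650.4, 2930.2 and 2660.3 with the drug. Lrrc58 had values of 1632, 1817, 2939 and 2618 without and 1166, 1378, 1139 and 1211 with the drug. In both genes every treated library was below every untreated library. Groups that do not overlap were found for these 3 of the 7 genes and for 31.5% of all genes tested.

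The other 4 genes overlapped between treated and untreated libraries. Wdr89 had values of 249.9, 249, 333 and 232 without and 156, 165, 243 and 268 with actinomycin D. Tmem38b had values of 118, 245, 195 and 250.1 without and 212, 212, 314 and 355 with it. Wdr89 was lower with the drug in 3 of 4 pairs and Tmem38b was higher in 3 of 4. Oaz1 stayed between 655 and 1032 in all libraries, with 655, 851, 816 and 1032 without and 958, 844, 816 and 778 with the drug. Fau had values of 37.4, 74.8, 30.1 and 66.4 without and 59.8, 30.5, 69.9 and 52.6 with the drug, which rest on 29 to 71 reads per library.

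**Figure D4:**
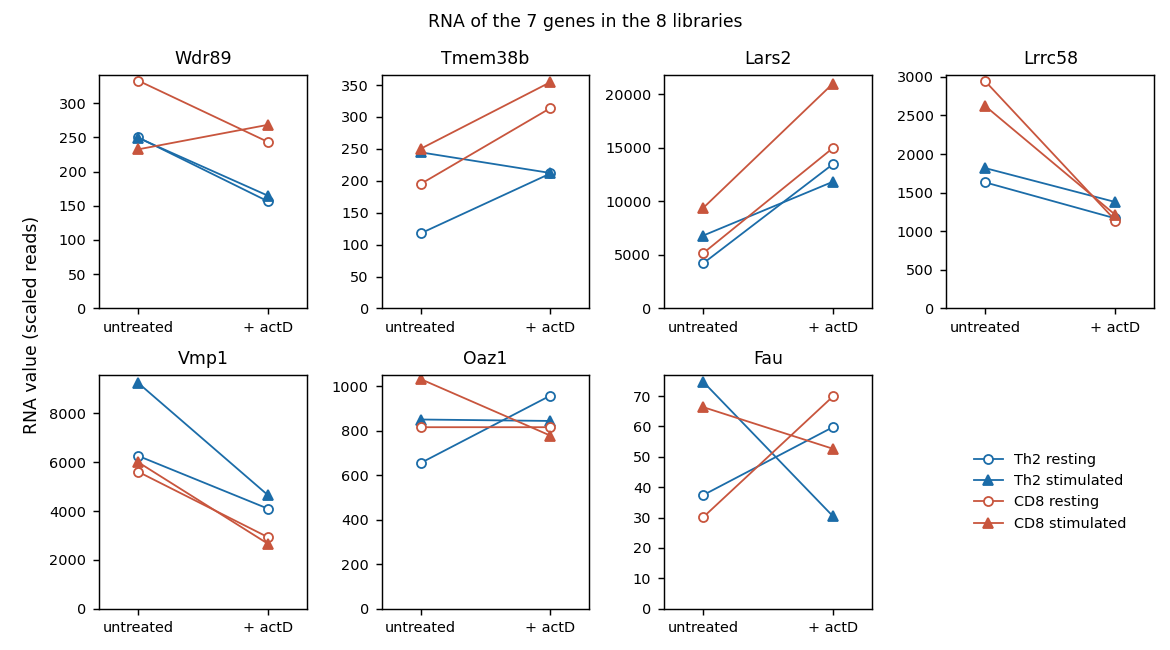
RNA value in scaled reads (vertical, from 0) in the untreated and the actinomycin D library of each cell type and state, 1 panel per gene and 1 point per library, with lines joining matched libraries. Lines for Lars2 all rise and those for Vmp1 and Lrrc58 all fall, while lines for Oaz1 and Fau cross.

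Actinomycin D moved the RNA of 3 of the 7 genes past an adjusted p of 0.05 in limma over 4 pairs of libraries, beside 38.7% of the 10972 genes tested (16.8% higher and 21.9% lower). Lars2 was 2.46-fold higher, a log2 change of 1.297 ± 0.17 (SE, n = 4 pairs; limma adjusted p = 0.00373), in 4 of 4 pairs. Vmp1 changed by -0.93 ± 0.14 on the log2 scale (limma adjusted p = 0.0049) and was lower in 4 of 4 pairs. Lrrc58 changed by -0.84 ± 0.20 (limma adjusted p = 0.0212) and was also lower in 4 of 4 pairs. A change in the same direction in 4 of 4 pairs was found for 55.9% of all genes tested. For Lrrc58 the adjusted p was 0.0691 without the CD8 resting pair and 0.0842 without the CD8 stimulated pair. Log2 changes are on the scale of the value plus 1 and are relative within a library, so that fewer cells of a type and less RNA per cell cannot be told apart. The drug and any difference in preparation shared by the 4 treated libraries, such as the lysis described above, cannot be told apart either.

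The remaining 4 genes did not pass. The log2 change was -0.38 ± 0.21 for Wdr89 (limma adjusted p = 0.197), 0.46 ± 0.23 for Tmem38b (0.154), 0.03 ± 0.19 for Oaz1 (0.90) and 0.06 ± 0.44 for Fau (0.917). The median over the 7 genes was 0.03 and over all genes tested 0.00. Scaling each library to its 79 other cytosolic ribosomal protein genes shifted the median of all genes to -0.63. Under that scaling the change of Lars2 was 0.66, still positive, and those of Vmp1 and Lrrc58 stayed negative at -1.565 and -1.48. Tmem38b, Oaz1 and Fau changed sign, to -0.18, -0.60 and -0.56, and Wdr89 passed the threshold at -1.01 (limma adjusted p = 0.036). Under that scaling 4580 of the 10972 genes tested were called, 4536 of them lower.

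**Figure D5:**
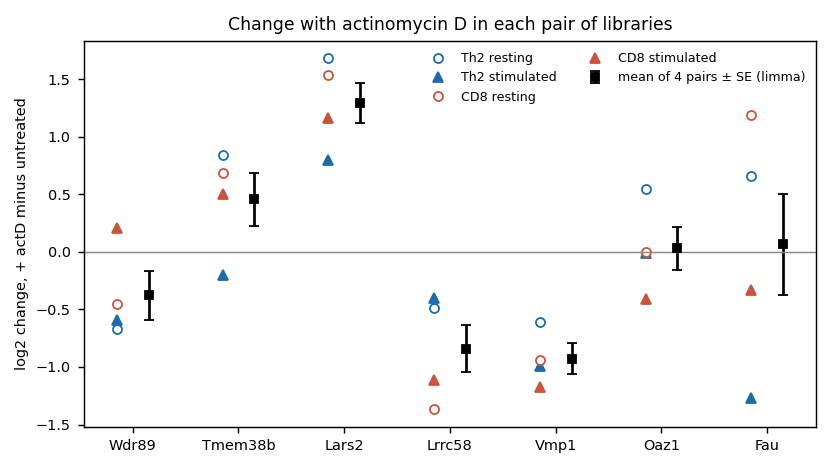
Log2 change with actinomycin D (vertical) in each of the 4 pairs of libraries (coloured points) and the limma mean with its standard error (black) for the 7 genes. The 4 Lars2 pairs lie between 0.80 and 1.68, and all Vmp1 and Lrrc58 pairs lie below 0.

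Structured noncoding RNAs rose beside Lars2. Of 18 listed, 4 reached a mean of at least 50 scaled reads over the 8 libraries, treated ones included. All 4 were higher with actinomycin D, with a median log2 change of 2.56. Mitochondrial 12S rRNA (mt-Rnr1) changed by 2.17 ± 0.15 (limma adjusted p = 0.00137), with values of 13445 to 21561 without and 66406 to 110037 with the drug. Rn7sk, the scaffold RNA of P-TEFb inhibition, changed by 2.95 ± 0.22 (limma adjusted p = 0.00137). Snord118, a nucleolar RNA for rRNA processing, was listed at 0 in 3 untreated libraries and at 3.40 in the fourth, and had values of 96.5 to 549 with the drug. It passed the filter only through its treated libraries, so its call as higher was set by the filter. The count and the median above include it. Rn7sk and Snord118 normally carry no poly(A) tail. The part of the RNA preparation, or of ribosomal or structured RNA, in the Lars2 change was not tested. Over the 19 other mitochondrial aminoacyl-tRNA synthetase genes 2 were higher, 4 lower and 13 did not pass, with a median of 0.10. Pars2, Yars2 and Gatc, which charge or amidate mitochondrial tRNAs, changed by -1.56, -1.41 and -0.97.

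In the pathways of the other genes, called genes lay in both directions. The share called with the drug was 15.4% for polyamine regulation, 28.6% for autophagosome formation, 31.6% for the mitochondrial synthetases, 45.5% for ubiquitin-like genes, 46.4% for the small ribosomal subunit and 46.7% for calcium handling, on either side of the 38.7% over all genes. Of the 28 other autophagosome genes tested with Vmp1, 2 were higher and 6 lower with a median of -0.11. Atg101, of the initiating kinase complex, changed by -1.98, the lipid kinase Pik3c3 by -1.25 and the phosphoinositide reader Wipi1 by 1.12. Of 15 other genes of endoplasmic reticulum calcium handling tested beside Tmem38b, 4 were higher and 3 lower with a median of 0.42. The store-operated channel Orai1 changed by -2.87, the calcium pump Atp2a2 by -0.91 and the calcium sensor Stim2 by -0.82. Of 13 other genes of polyamine regulation tested beside Oaz1, Amd1 was lower at -1.16 and Oaz2, a second antizyme, higher at 0.63. Of 28 other small ribosomal subunit genes tested beside Fau, 10 were higher and 3 lower with a median of 0.63. The lower ones included Rps27a at -2.94 and Rps6 at -2.27. Rps6 was listed at only 65.4 to 146 scaled reads without and 16.2 to 31.3 with the drug. The part of reads lost or split among copies in these values was not tested. Among the 11 other ubiquitin and ubiquitin-like genes tested 2 were higher and 3 lower, the lower ones including Rps27a at -2.94 and Ubb at -1.61. Under ribosomal protein scaling none of the genes higher with the drug in these 5 lists or among the mitochondrial synthetases kept that call, the small ribosomal subunit median was -0.01, which that scaling sets, and Oaz2 was at -0.01. Of the structured noncoding RNAs, 3 of the 4 stayed higher, with the limit given above for Snord118.

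Stimulation with PMA and ionomycin moved none of the 7 genes past the threshold in limma over all 8 libraries, beside 0.118% of genes tested. At an unadjusted p under 0.05 there was 1 of the 7, Lars2, beside 14.7% of genes tested, and edgeR and DESeq2 on the recovered reads also called 0. The log2 changes ranged from -0.08 ± 0.19 for Wdr89 to 0.46 ± 0.17 for Lars2 (limma adjusted p = 0.320). Lars2 was higher in 3 of 4 stimulated libraries, by 0.70 in Th2 and 0.86 in CD8 cells without the drug and by -0.19 and 0.49 with it. In the 4 untreated libraries alone its change was 0.78 (limma adjusted p = 0.0413), where 11.3% of genes tested were called. Tmem38b was higher in 4 of 4 stimulated libraries at 0.40 ± 0.21 (limma adjusted p = 0.401), but in Th2 cells with the drug by only 0.005. The share of all genes with 4 of 4 in the same direction was not counted for stimulation or cell type.

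Between cell types, 1 of the 7 genes, Vmp1, passed in the additive limma fit, beside 21.5% of genes tested (9.97% higher and 11.5% lower in CD8 cells). Its values were 4098 to 9252 in Th2 libraries and 2660.3 to 6005 in CD8 libraries, ranges that overlap. Matched for stimulation and drug, it was lower in CD8 cells in 4 of 4 comparisons, by -0.52 ± 0.14 on the log2 scale (limma adjusted p = 0.0370). The call was lost when any library but the untreated resting Th2 library was left out, with adjusted p from 0.0668 to 0.130, and under ribosomal protein scaling at 0.158. Tmem38b was higher in CD8 cells in 4 of 4 comparisons at 0.52 ± 0.21 (limma adjusted p = 0.123), and so was Lars2 at 0.43 ± 0.17 (limma adjusted p = 0.120). With matched conditions as a block, where 36.8% of genes tested were called, Tmem38b (limma adjusted p = 0.0421) and Lars2 (0.0285) passed as well as Vmp1 (0.0131). The B cell and myeloid marker sums given above also differed between the cell types, and their part in these differences was not tested.

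Whether the response to stimulation differed with actinomycin D was tested as an interaction. None of the 7 genes passed in limma, beside 14.5% of genes tested (7.06% positive and 7.44% negative). At an unadjusted p under 0.05 there were 2 of the 7, Fau and Lars2, beside 34.1% of genes tested, and edgeR and DESeq2 on the recovered reads also called 0. Fau was higher after stimulation by 0.98 in Th2 and 1.12 in CD8 cells without the drug and lower by -0.95 and -0.40 with it. The difference was -1.73 ± 0.51 (limma adjusted p = 0.0607) and rests on the few Fau reads given above. For Lars2 it was -0.63 ± 0.24 (limma adjusted p = 0.118), and 0.06 under ribosomal protein scaling.

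The gene most like each of the 7 was taken as the tested gene with the highest Pearson correlation of log2 values over the 8 libraries, which share the conditions and the scaling. For Lars2 this was Gm15564 with r = 0.992, the antisense-class gene on chr16 that aligned with a Lars2 peak. Gm15564 had values of 1519, 2753, 2284 and 4123 without and 5258, 5382, 5976 and 8929 with actinomycin D, and no peak. Reads of these genes may be shared where their sequences match, so both levels are uncertain there. For the others it was Ptcd2 with Wdr89 (r = 0.985), Bri3 with Tmem38b (0.974), Rbbp6 with Lrrc58 (0.973), Kcnq1ot1 with Vmp1 (0.990), Kmt2d with Oaz1 (0.986) and Psmc3 with Fau (0.983). The number of the 10971 other genes with r over 0.9 ran from 5 for Oaz1 to 308 for Vmp1.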

How the data were processed

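GCLiPP and RNA-seq libraries were grouped by the submitters' labels. For GCLiPP the authors aligned reads to mm10 with Bowtie2, removed duplicates, pooled all mouse libraries and called peaks in 70-base windows of 3′ UTRs. The deposited score of each peak was used as given. RNA-seq reads were aligned with STAR to mm10. The deposited signal is gene reads divided by 1 size factor per library, read from the values: 100% were whole multiples of 1 step within 0.01 read, although the study's methods describe scaling by length and depth. The sources used here do not name the counter, annotation or strand setting. Another deposited table repeats these values (347456 of 347456 equal) with the authors' fold changes between conditions, and was not used.

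Genes with a mean of at least 50 scaled reads over the 8 libraries (10972) were fitted with limma 3.58.1 (trend) on log2(value + 1), with Benjamini-Hochberg adjustment over all genes and two-sided tests: actinomycin D with the pair of libraries as a term, stimulation and cell type in additive models, and their interaction. Each condition had 1 library, so p-values measure the spread between these libraries only. edgeR 4.0.16 and DESeq2 1.42.0 on recovered reads were alternatives. The fits were also run on simulated counts with a fixed dispersion and no effect besides the fitted one, which does not show their error rates in these data.

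Peak sequences came from GENCODE vM21 transcripts (GRCm38, the build mm10) and microRNAs from RefSeq. Peaks were aligned on the transcript strand with BLAST+ 2.17.0 (word size 11, E-value at most 1e-05). Named genes were the 7, the 5 highest ratios outside them and 3 on either side of the lowest of the 7, the most correlated gene for each, and up to 3 called genes per pathway list. The 7 genes and the lists were chosen with earlier results of these data known. Some genes that this rule or the marker lists take in are not reported here.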

Additional observations from a re-analysis of the deposited data

How the results depend on the processing

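Over the alternatives run, namely a pseudocount of 10, no filter, TMM scaling, ribosomal protein scaling, edgeR, DESeq2 and a model without pairs, Lars2, Vmp1 and Lrrc58 stayed past the threshold with actinomycin D. Wdr89 joined them under ribosomal protein scaling. Their adjusted p ranged from 7.36e-09 to 0.0169 for Lars2, 3.57e-06 to 0.00636 for Vmp1 and 0.00303 to 0.0281 for Lrrc58. Of the 7 genes, stimulation called 1 in the 4 untreated libraries alone. The cell type difference called 0 under ribosomal protein scaling and 3 with matched conditions as a block, and 0 or 1 with a library left out, the 1 being Tmem38b without the stimulated Th2 library and Vmp1 without the resting one. The interaction called 1 under ribosomal protein scaling, Wdr89 at 1.06, and between 0 and 2 with a library left out, the 2 being Tmem38b (adjusted p = 0.0393) and Fau (0.0302) without the stimulated CD8 library. The cause was not tested. The 10 highest ratios held 6 of the 7 genes with the mean untreated RNA, 3 with Th2 resting RNA, 1 with CD8 resting RNA and 3 with CD8 stimulated RNA alone. With peaks inside the gene bounds alone, 22 peaks remained and Fau had none. Among all genes tested, 4245 were called for actinomycin D (4041 to 5145 under the alternatives), 13 for stimulation (6 to 1238), 2358 for cell type (1474 to 4037) and 1591 for the interaction (940 to 4988). The share of calls that were higher with actinomycin D was 43.4% as deposited and 0.961% under ribosomal protein scaling. With 1 library or pair left out they ran from 2216 to 4051, 3 to 12, 1466 to 2484 and 25 to 3315. The share of positive interaction calls was 48.7% and, under ribosomal protein scaling, 94.2%. By replicate number, no paired analysis was possible because the peak list has no values per GCLiPP library and the RNA-seq columns carry no such numbers. RNA-seq libraries were instead matched by condition, as above. GCLiPP scores have no replicate error, and depth limits Fau most.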

Other observations

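Of the 28 small ribosomal subunit genes tested beside Fau, 14 responded differently to stimulation with actinomycin D in limma, and all 14 differences were negative, beside 7.44% of all genes tested in that direction. The differences were -1.71 for Rps27a, -1.63 for Rps10 and -1.47 for Rps15 on the log2 scale. Under ribosomal protein scaling, which these genes help set and which shifted the median of all genes to 0.68, 3 were called negative and 1 positive. Of the 13 polyamine genes tested beside Oaz1, 4 were called with a negative difference, beside the same 7.44%. The median difference of the 13 was -0.82. Among the 4 were spermine oxidase Smox at -1.72, Azin2, an antizyme inhibitor, at -1.66, and Eif5a, the factor that carries hypusine, at -0.96. Under that scaling 2 were called negative and 2 positive.

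Between cell types, 0 of 28 small ribosomal subunit genes, 1 of 28 autophagosome genes, 1 of 11 ubiquitin-like genes, 3 of 19 mitochondrial synthetases, 3 of 13 polyamine genes and 4 of 15 calcium genes were called in limma, beside 21.5% of all genes tested. Azin2 was lower in CD8 cells by -3.87 on the log2 scale (limma adjusted p = 0.000226), at 25.9 to 92.5 scaled reads in CD8 and 486 to 1309 in Th2 libraries. The calcium release channel Itpr1 was lower in CD8 cells by -1.90 and Itpr2 by -0.88 (limma adjusted p = 2.12e-05 and 0.00191). Under ribosomal protein scaling the adjusted p of Itpr2 was 0.0518. The calcium pump Atp2a2 was the only gene of these pathway lists called with stimulation, at 0.89 ± 0.10 (limma adjusted p = 0.0329), and was higher in 4 of 4 stimulated libraries. Under ribosomal protein scaling its adjusted p was 0.167.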
